A study of Mus musculus with 7 samples.

Results

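The complement genes of tumour-associated microglia were C1qa, C1qb and C1qc, C4b, C3, the anaphylatoxin receptor genes C3ar1 and C5ar1, and Itgam and Itgb2, which encode both chains of complement receptor 3. These 9 genes were chosen by function and matched by gene symbol. All 9 had a row among the 24537 genes of the deposited table. Olfr48, an olfactory receptor gene whose aliases include C3, was not taken as a member. The cells were microglia, which are macrophages resident in the brain, sorted by intermediate CD45 and by CX3CR1 from glioma-bearing brains of C57BL/6 mice on day 35 after implantation of 005 glioblastoma cells. One group had received an antibody to the checkpoint receptor CTLA4 together with depletion of CD4 T cells (CD4 depletion + anti-CTLA4, n = 3), another is labelled anti-CTLA4 (n = 2), and the control group had received IgG (n = 2). All 7 libraries came from tumour-bearing mice, and no library from a tumour-free brain was analysed here. The labels give no age, sex or dose and do not say whether replicates were separate animals, so the p-values measure no more than how far these libraries spread, and that spread may be technical.

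Complement is a cascade of proteases and tags that marks particles for uptake. In the classical pathway, C1q binds a surface and its partner proteases C1r and C1s cut C4 and C2, which together form an enzyme that cuts C3. Fragments of C3 coat the surface and are read by complement receptor 3, while the small fragments C3a and C5a signal through C3ar1 and C5ar1. In the brain, microglia are the main source of C1q, and C1q, C3 and complement receptor 3 are known for their part in the removal of synapses.

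Low FPKM values, read as whole reads, put 49900000 to 61900000 reads in genes in each library. C3 in CD4 depletion + anti-CTLA4 replicate 2, the lowest value of any member, still stood for about 1740 reads, so counting error was small beside the spread between libraries. All 27 genes of a homeostatic microglia list reached 1 FPKM in each library, and their summed level was 7617 to 15381 FPKM in CD4 depletion + anti-CTLA4, 18629.6 and 28661 FPKM in labelled anti-CTLA4, and 11324 and 13997 FPKM in IgG. The table columns read as anti-CTLA4 carry the sheet numbers 29 and 30, whereas the sample descriptions carry 10 and 11 and the header's command gives 29 and 30 to interferon-gamma receptor knockouts. They are therefore called labelled anti-CTLA4, and each direction in a comparison with them depends on that reading. CD4 depletion + anti-CTLA4 replicate 1 stood apart: 14 monocyte and recruited macrophage markers summed to 1961 FPKM there and to 43.5 to 154 FPKM in the other 6 libraries. Y-linked genes summed to 9.53 to 14.5 FPKM in CD4 depletion + anti-CTLA4, against 0.514 and 2.63 FPKM in labelled anti-CTLA4 and 1.81 and 3.35 FPKM in IgG, so the sex of the cells cannot be told apart from the depletion.

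RefSeq promoter windows of build GRCm38.p6, from 250 bases before to 50 bases from the annotated start on, were at hand for 6 members: C1qb, C1qc, C3, C3ar1, C5ar1 and Itgam. C1qb and C1qc are shown because the C1q genes are neighbours whose levels moved together, and C3 because it was lower relative to its receptor gene in the depletion libraries. The C1qb window is chr4:136886151-136886450, the C1qc window is chr4:136892865-136893164 and the C3 window is chr17:57228087-57228386, all on the minus strand and written 5′ to 3′ in the gene's direction. Capitals mark AGGAAG, a core bound by ETS factors such as the myeloid factor PU.1, on either strand (CTTCCT is its reverse complement), and TATAAA in the C3 window.
C1qb: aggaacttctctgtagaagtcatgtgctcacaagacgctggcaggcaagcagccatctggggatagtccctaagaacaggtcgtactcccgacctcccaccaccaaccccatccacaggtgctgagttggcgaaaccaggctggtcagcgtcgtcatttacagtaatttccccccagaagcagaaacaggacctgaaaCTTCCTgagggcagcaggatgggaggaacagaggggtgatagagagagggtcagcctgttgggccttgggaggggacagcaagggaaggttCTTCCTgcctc
C1qc: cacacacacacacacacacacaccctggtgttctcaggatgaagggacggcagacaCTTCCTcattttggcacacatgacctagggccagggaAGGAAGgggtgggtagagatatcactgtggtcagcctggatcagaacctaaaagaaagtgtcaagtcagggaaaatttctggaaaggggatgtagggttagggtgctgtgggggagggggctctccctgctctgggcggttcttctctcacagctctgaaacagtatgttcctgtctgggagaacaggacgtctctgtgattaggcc
C3: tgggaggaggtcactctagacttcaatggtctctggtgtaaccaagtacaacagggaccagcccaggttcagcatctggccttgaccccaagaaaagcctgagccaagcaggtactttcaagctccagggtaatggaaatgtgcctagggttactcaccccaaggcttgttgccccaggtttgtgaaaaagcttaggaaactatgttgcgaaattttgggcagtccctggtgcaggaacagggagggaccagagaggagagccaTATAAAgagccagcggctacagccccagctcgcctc
AGGAAG occurred in 5 of the 6 members' windows, the exception being C3, and in 35.4% of all 32851 windows. C1qb held it at bases -52 and 40 and C1qc at bases -194 and -157, where the annotated start is base 1. The longer PU.1 core GAGGAAGT, which contains AGGAAG, was found in C1qc alone among the 6, and in 3.2% of all windows. TATAAA occurred in C3, where it begins at base 15, and in C3ar1, against 13.6% of all windows. Of the other motifs searched on both strands, the NF-kB type site was in 5 of 6 members and 50.8% of all windows, and CCAAT was in C5ar1 alone and in 37.4%. The gamma-activated site TTCNNNGAA (8.3% of all windows), the core of the interferon-stimulated response element (3.44%) and the C/EBP type site TTGCNNCAA (2.08%) were in 0 of the 6 windows, which says only that these letters are not in these windows.

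The C1q chains were among the most abundant transcripts of these cells and all 3 were higher in labelled anti-CTLA4 than in either other group. The group mean of labelled anti-CTLA4 was 2.40 times that of IgG for C1qa, 2.51 times for C1qb and 2.40 times for C1qc, and the mean of CD4 depletion + anti-CTLA4 was 0.472 to 0.491 times that of labelled anti-CTLA4. C1qa, C1qb and C1qc encode the A, B and C chains that assemble into the C1q recognition molecule, and lie side by side on chromosome 4 (mm10: C1qb 136880145 to 136886177, C1qc 136889802 to 136892914, C1qa 136895916 to 136898844, all minus strand). C1qa stood at 1172, 952 and 1186 FPKM in CD4 depletion + anti-CTLA4, at 2452 and 2221 FPKM in labelled anti-CTLA4, and at 898 and 1053 FPKM in IgG. Both labelled anti-CTLA4 libraries were above all 5 others, while CD4 depletion + anti-CTLA4 and IgG overlapped. C1qb stood at 2164, 1659 and 2253 FPKM in CD4 depletion + anti-CTLA4, 4421 and 4101 FPKM in labelled anti-CTLA4, and 1503 and 1893 FPKM in IgG. For C1qc the values were 1484, 1308 and 1562 FPKM in CD4 depletion + anti-CTLA4, 3097 and 2812 FPKM in labelled anti-CTLA4, and 1130.4 and 1329 FPKM in IgG. These chains repeated the pattern of C1qa, and in each library the order per unit of transcript length was C1qb above C1qc above C1qa. C1qb ranked 5 to 7 of all 24537 genes by FPKM, C1qc 9 to 13 and C1qa 10 to 16.

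On the log2(FPKM + 1) scale, C1qa fell in CD4 depletion + anti-CTLA4 against labelled anti-CTLA4 by 1.09 (SE 0.27, limma adjusted p = 0.026). C1qb fell by 1.08 (SE 0.33, limma adjusted p = 0.046) and C1qc by 1.03 (SE 0.28, limma adjusted p = 0.034). In labelled anti-CTLA4 against IgG, C1qa rose by 1.26 (SE 0.29, limma adjusted p = 0.018), C1qb by 1.34 (SE 0.36, limma adjusted p = 0.027) and C1qc by 1.27 (SE 0.31, limma adjusted p = 0.020). The falls were close to the threshold: with each library left out in turn, the limma adjusted p was 0.029 to 0.116 for C1qa, 0.058 to 0.145 for C1qb and 0.047 to 0.124 for C1qc, with C1qa and C1qc past 0.05 only without CD4 depletion + anti-CTLA4 replicate 1. Without any one of labelled anti-CTLA4 replicate 2, IgG replicate 1 or IgG replicate 2, none of the 3 rises passed, with log2 changes of 1.15 to 1.50 over the libraries left out. The list of homeostatic microglia genes moved in the same directions. Its median log2 change was -0.93 with 11 of 27 genes lower in CD4 depletion + anti-CTLA4 than in labelled anti-CTLA4, and 0.84 with 12 of 27 higher in labelled anti-CTLA4 than in IgG. Over all genes tested, the median was 0.27 with 6.59% lower in the first comparison, and -0.31 with 9.29% higher in the second. Markers of oligodendrocyte precursors and tumour-like cells ran the other way and summed to 223 to 755 FPKM in CD4 depletion + anti-CTLA4, 49.3 and 116 FPKM in labelled anti-CTLA4, and 908 and 1241 FPKM in IgG, with 11 to 16 of the 16 markers at 1 FPKM or more in a library. The part of this mixture in the C1q differences was not tested, and in bulk RNA fewer cells of a type and less RNA per cell cannot be told apart.

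**Figure D1:**
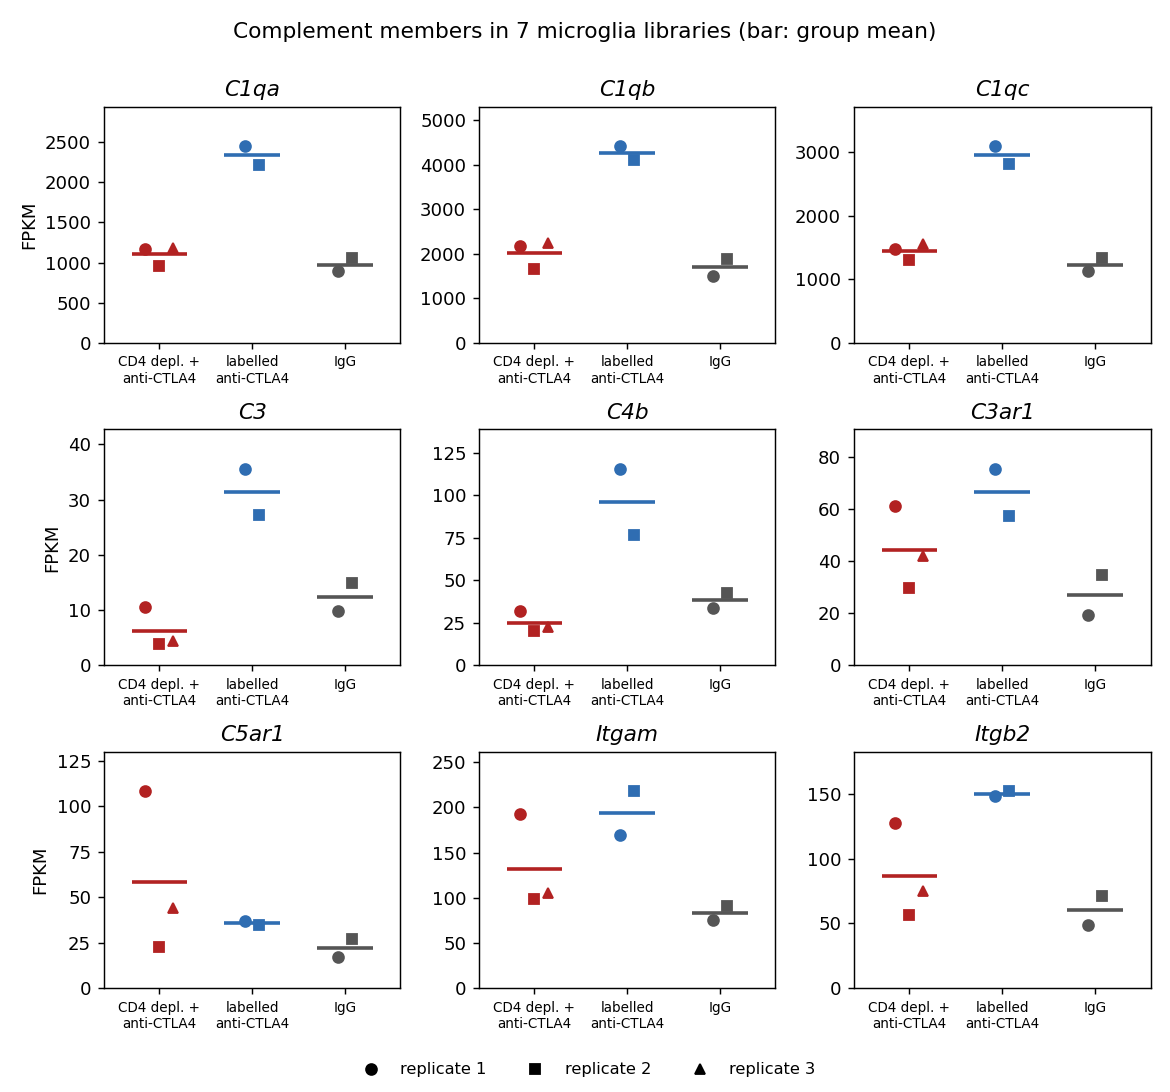
FPKM of the 9 complement genes (y axis, from 0, a separate scale per gene) in CD4 depletion + anti-CTLA4, labelled anti-CTLA4 and IgG libraries (x axis); each symbol is 1 library, its shape the replicate number, and the bar is the group mean. The C1q chains, C3 and C4b show both labelled anti-CTLA4 libraries above all others, whereas C5ar1 is highest, at 108 FPKM, in CD4 depletion + anti-CTLA4 replicate 1.

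C4b and C3, which carry the cascade on from C1q, showed the largest falls of the 9 genes in CD4 depletion + anti-CTLA4 against labelled anti-CTLA4, and had their lowest group means with depletion. C3, on chromosome 17 from 57203967 to 57228136, is the central component cut by all activation pathways. Its level was 10.6, 3.90 and 4.37 FPKM in CD4 depletion + anti-CTLA4, 35.6 and 27.1 FPKM in labelled anti-CTLA4, and 9.85 and 14.9 FPKM in IgG. Labelled anti-CTLA4 lay above both other groups, and replicate 1 of CD4 depletion + anti-CTLA4 overlapped with IgG while replicates 2 and 3 lay below it. C3 fell by 2.25 on the log2 scale in CD4 depletion + anti-CTLA4 against labelled anti-CTLA4 (SE 0.38, limma adjusted p = 0.013) and rose by 1.29 in labelled anti-CTLA4 against IgG (SE 0.42, limma adjusted p = 0.046). The microRNA gene Mir6978 lies within C3, and reads of overlapping genes cannot be told apart here.

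C4b, on chromosome 17 from 34728381 to 34743897, encodes the mouse C4 protein that C1s cuts. It stood at 32.1, 20.3 and 22.3 FPKM in CD4 depletion + anti-CTLA4, 115 and 76.4 FPKM in labelled anti-CTLA4, and 34.0 and 42.3 FPKM in IgG. No groups overlapped: the 3 depletion libraries were lowest, IgG was next and labelled anti-CTLA4 was highest. C4b fell by 1.90 on the log2 scale in CD4 depletion + anti-CTLA4 against labelled anti-CTLA4 (SE 0.25, limma adjusted p = 0.012) and rose by 1.29 in labelled anti-CTLA4 against IgG (SE 0.28, limma adjusted p = 0.015). Its near-identical neighbour C4a was listed at 0.026 to 0.129 FPKM, and how reads shared by both copies were divided is uncertain. With each library left out in turn, the log2 change in CD4 depletion + anti-CTLA4 against labelled anti-CTLA4 was -2.64 to -2.02 for C3 and -2.19 to -1.61 for C4b. Both passed in 6 of these 7 fits, the exception being the fit without labelled anti-CTLA4 replicate 2 (limma adjusted p = 0.101 for C3 and 0.095 for C4b), in which 0 of all 13028 genes passed and 3280 had an unadjusted p under 0.05.

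For markers of mural cells and fibroblasts, endothelium and erythroid cells, the median log2 changes had the signs of C3 and C4b in both comparisons with labelled anti-CTLA4. In CD4 depletion + anti-CTLA4 against IgG their median log2 changes were 0.87, 0.46 and 1.08, with C3 at -0.96 and C4b at -0.61. The 10 mural cell and fibroblast markers summed to 173, 83.2 and 42.2 FPKM in CD4 depletion + anti-CTLA4, 436 and 217 FPKM in labelled anti-CTLA4, and 22.3 and 31.4 FPKM in IgG, with 6 to 10 of them at 1 FPKM or more in a library. Of these 10, 5 fell in CD4 depletion + anti-CTLA4 against labelled anti-CTLA4 (median log2 change -1.42), and 7 rose in labelled anti-CTLA4 against IgG (median 3.42). Dcn, encoding the matrix proteoglycan decorin, stood at 28.7, 23.4 and 8.47 FPKM in CD4 depletion + anti-CTLA4, 137 and 73.7 FPKM in labelled anti-CTLA4, and 3.61 and 7.33 FPKM in IgG. Endothelial markers summed to 23.2 to 42.7 FPKM in CD4 depletion + anti-CTLA4, 44.4 and 46.5 FPKM in labelled anti-CTLA4, and 16.6 and 20.9 FPKM in IgG. Of 9 tested, 4 rose in labelled anti-CTLA4 against IgG, and 1 fell in CD4 depletion + anti-CTLA4 against labelled anti-CTLA4 (median log2 change -0.33). Erythroid markers summed to 166 to 576 FPKM in CD4 depletion + anti-CTLA4, 939 and 980.4 FPKM in labelled anti-CTLA4, and 47.4 and 328 FPKM in IgG. Of 5 tested, 4 rose in labelled anti-CTLA4 against IgG, and 0 passed in CD4 depletion + anti-CTLA4 against labelled anti-CTLA4 (limma, median log2 change -1.69). Of all genes tested, 6.59% were lower in CD4 depletion + anti-CTLA4 against labelled anti-CTLA4 and 9.29% higher in labelled anti-CTLA4 against IgG. The part of mural, fibroblast, endothelial and erythroid cells in the C3, C4b and C1q levels was not tested.

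The anaphylatoxin receptor genes were less uniform, and C5ar1 passed the test in no comparison. C3ar1, the receptor for C3a, on chromosome 6 from 122847140 to 122856157, stood at 61.4, 29.9 and 42.1 FPKM in CD4 depletion + anti-CTLA4, 75.7 and 57.4 FPKM in labelled anti-CTLA4, and 19.3 and 34.7 FPKM in IgG. CD4 depletion + anti-CTLA4 overlapped with both other groups, whereas labelled anti-CTLA4 lay above IgG. C3ar1 rose by 1.31 on the log2 scale in labelled anti-CTLA4 against IgG (SE 0.38, limma adjusted p = 0.032). For CD4 depletion + anti-CTLA4 against labelled anti-CTLA4 its log2 change was -0.62 (SE 0.35, 95% interval -1.43 to 0.19, limma adjusted p = 0.200). C5ar1, the receptor for C5a, on chromosome 7 from 16246743 to 16259540, stood at 108, 22.6 and 43.8 FPKM in CD4 depletion + anti-CTLA4, 36.9 and 34.9 FPKM in labelled anti-CTLA4, and 17 and 26.9 FPKM in IgG. Replicate 1 of CD4 depletion + anti-CTLA4 was far above the other 6 libraries, among which labelled anti-CTLA4 lay above IgG. The C5ar1 log2 change was 0.40 in CD4 depletion + anti-CTLA4 against labelled anti-CTLA4 (SE 0.56, limma adjusted p = 0.601) and -0.18 without that library. In labelled anti-CTLA4 against IgG it was 0.72 (SE 0.61, limma adjusted p = 0.375).

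The library with the high C5ar1 value was also the one with high monocyte markers. In CD4 depletion + anti-CTLA4 replicate 1 all 14 markers of that list reached 1 FPKM, against 9 and 12 in replicates 2 and 3, 11 and 12 in labelled anti-CTLA4, and 8 and 11 in IgG. Ccr2, the chemokine receptor of recruited monocytes, was at 43.1 FPKM there and at 1.02 to 2.24 FPKM elsewhere. Of that list Ly6i alone was higher in another library, at 3.08 FPKM there and at 19.1 and 10.9 FPKM in labelled anti-CTLA4. The 12 neutrophil markers summed to 558 FPKM there and to 37.2 to 183 FPKM elsewhere, and 10 of the 12 reached 1 FPKM there against 4 to 7 elsewhere. That sum held S100a8 at 227 FPKM and S100a9 at 203 FPKM. Both were highest there, as were Retnlg, Mmp8, Mmp9 and the chemokine receptor gene Cxcr2, at 9.20 FPKM there and at 0.008 to 0.235 FPKM elsewhere. Ly6g was at 0.101 FPKM there and at 0 to 0.266 FPKM elsewhere. Ngp, Camp, Ltf, Csf3r and Elane were each higher in a labelled anti-CTLA4 library, with Csf3r at 38.6 FPKM there and at 63.1 and 88.9 FPKM in labelled anti-CTLA4. Border-associated macrophage markers summed to 93.2 FPKM there and to 6.01 to 48.3 FPKM elsewhere. Their part in the C5ar1, C3ar1, Itgam and Itgb2 levels of that library was not tested.

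Complement receptor 3 is a beta 2 integrin that binds the iC3b fragment of C3. Its alpha chain CD11b is encoded by Itgam, on chromosome 7 from 128062640 to 128118491, and its beta chain CD18, which it shares with the other beta 2 integrins, by Itgb2, on chromosome 10 from 77530348 to 77565674. Itgam stood at 192, 98.5 and 105 FPKM in CD4 depletion + anti-CTLA4, 169.7 and 218 FPKM in labelled anti-CTLA4, and 75.7 and 90.4 FPKM in IgG. Itgb2 stood at 128, 56.1 and 75.1 FPKM in CD4 depletion + anti-CTLA4, 149 and 152 FPKM in labelled anti-CTLA4, and 49.0 and 71.3 FPKM in IgG. For both chains labelled anti-CTLA4 lay above IgG, and replicate 1 was the highest of the depletion libraries, reaching into the labelled anti-CTLA4 range for Itgam but not for Itgb2. In labelled anti-CTLA4 against IgG, Itgam rose by 1.21 on the log2 scale (SE 0.33, limma adjusted p = 0.028) and Itgb2 by 1.33 (SE 0.37, limma adjusted p = 0.028). In CD4 depletion + anti-CTLA4 against labelled anti-CTLA4, the log2 change of Itgam was -0.61 (SE 0.30, limma adjusted p = 0.160) and that of Itgb2 was -0.88 (SE 0.34, limma adjusted p = 0.083). Without CD4 depletion + anti-CTLA4 replicate 1, Itgam was at -0.91 (limma adjusted p = 0.011) and Itgb2 at -1.20 (limma adjusted p = 0.0082), so that library decided whether either chain passed.

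Counted together, 5 of the 9 members fell and 0 rose in CD4 depletion + anti-CTLA4 against labelled anti-CTLA4, where 6.59% of all 13028 genes tested were lower and 29.4% passed in either direction. The members' median log2 change was -1.03 and that of all genes 0.27. The libraries of both groups did not overlap and were lower with depletion for 6 members, where 15.7% of all genes were lower without overlap, 44.7% higher and 60.5% either way. Across all genes 2969 were higher and 858 lower, and this split was 1463 higher and 1650 lower with median-of-ratios scaling, 1452 and 1460 with quantile normalization, and 8913 and 69 when scaled to the homeostatic list. Without labelled anti-CTLA4 replicate 2, 0 members passed (limma, with 5 at an unadjusted p under 0.05), and without CD4 depletion + anti-CTLA4 replicate 1, 6 did. Of all genes, 4133 were higher and 1158 lower without CD4 depletion + anti-CTLA4 replicate 1, so the all-gene counts moved as well. Leaving out replicate 2 or replicate 3 of that group left 2 members past the threshold, C3 and C4b. Across all genes 979 were higher and 407 lower without replicate 2, and 668 and 249 without replicate 3.

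In labelled anti-CTLA4 against IgG, 8 of the 9 members rose and 0 fell, where 9.29% of all genes tested were higher and 38.0% passed in either direction. The members' median log2 change was 1.29 and that of all genes -0.31. All 9 were higher in both labelled anti-CTLA4 libraries than in both IgG libraries, where 22.8% of all genes were higher without overlap, 54.1% lower and 76.9% either way. Across all genes 1210 were higher and 3747 lower, against 2147 higher and 2045 lower with median-of-ratios scaling, 1928 and 2081 with quantile normalization, and 55 and 8320 when scaled to the homeostatic list. Without CD4 depletion + anti-CTLA4 replicate 3, 957 of all genes were higher and 3177 lower. With 1 library left out, the log2 changes kept their direction for all 9, at 1.15 to 1.38 for C1qa and 0.99 to 1.58 for C4b, but the count of members past the threshold was 0 to 8. It was 0 without labelled anti-CTLA4 replicate 2, IgG replicate 1 or IgG replicate 2 (limma, with 8, 4 and 8 members at an unadjusted p under 0.05), 2 without labelled anti-CTLA4 replicate 1 and 5 without CD4 depletion + anti-CTLA4 replicate 3. The first 4 of these fits leave 1 library in a group, which is then assumed to vary like the others, and without labelled anti-CTLA4 replicate 2 or IgG replicate 1, 0 of all genes passed (limma, with 4493 and 4808 at an unadjusted p under 0.05).

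In CD4 depletion + anti-CTLA4 against IgG, 0 of the 9 members passed, as did 0 of all 13028 genes (limma, 0% called), with 2 members and 851 genes at an unadjusted p under 0.05. Those members were C3, with a log2 change of -0.96 (95% interval -1.86 to -0.07, limma adjusted p = 0.710), and C4b, with -0.61 (95% interval -1.21 to -0.02, limma adjusted p = 0.710). C4b was lower in all 3 depletion libraries than in both IgG libraries, which held for 16.2% of all genes (27.2% without overlap either way). Itgam was higher in all 3, which held for 11.0% of all genes, with a log2 change of 0.60 (95% interval -0.11 to 1.31). The C1q chains differed by 0.17 for C1qa (95% interval -0.45 to 0.80), 0.25 for C1qb (-0.52 to 1.03) and 0.24 for C1qc (-0.42 to 0.90). The receptor genes were at 0.70 for C3ar1, 1.12 for C5ar1 and 0.45 for Itgb2, and the members' median was 0.25 against -0.04 for all genes. Both comparisons of CD4 depletion + anti-CTLA4 use the same 3 depletion libraries, and both comparisons of labelled anti-CTLA4 use the same pair of libraries.

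**Figure D2:**
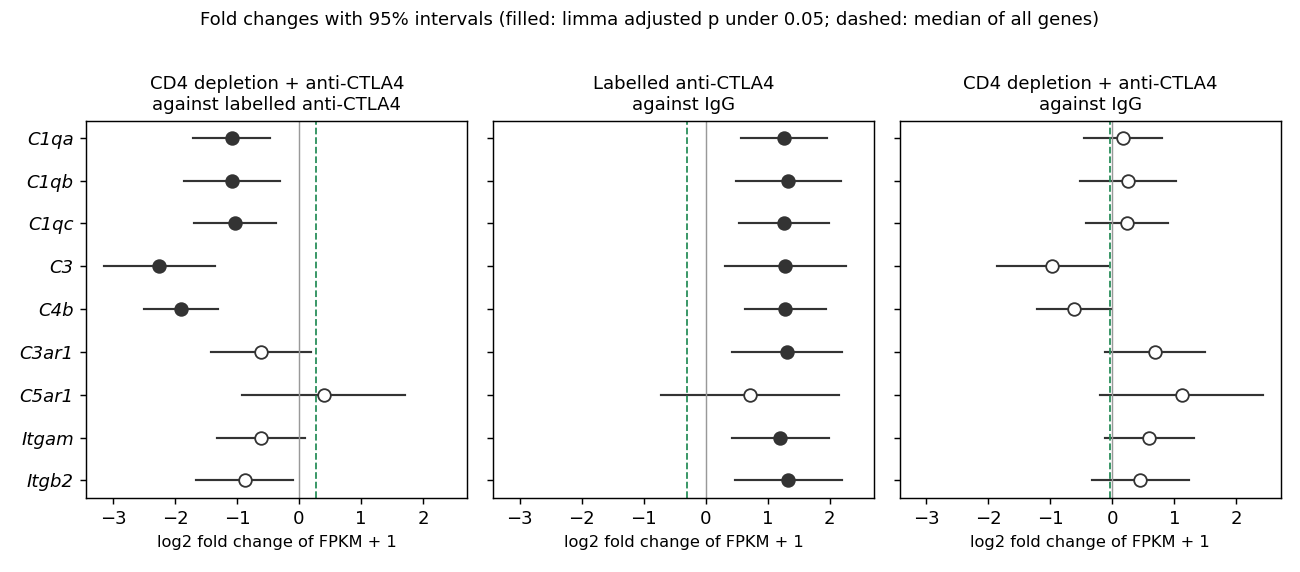
Log2 fold change of FPKM + 1 (x axis) of each complement gene (rows) in 3 comparisons (panels), with 95% intervals from limma; filled points passed at an adjusted p under 0.05 and the dashed line is the median of all genes. With depletion against labelled anti-CTLA4, C3 at -2.25 and C4b at -1.90 lie farthest to the left, and against IgG all points are open.

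Median-of-ratios scaling left the counts of members at 5 lower in CD4 depletion + anti-CTLA4 against labelled anti-CTLA4 and 8 higher in labelled anti-CTLA4 against IgG. When libraries were scaled to the 27 homeostatic genes, which shifted all genes alike and moved their median to 1.15, C3 in CD4 depletion + anti-CTLA4 against labelled anti-CTLA4 was at -1.37 and still passed (limma adjusted p = 0.020). C4b was then at -1.01 (limma adjusted p = 0.052), C1qa at -0.20, C1qb at -0.20 and C1qc at -0.14. On that scale C3ar1 was at 0.27, Itgam at 0.28 and Itgb2 at 0.01, all with the opposite sign to the deposited scale, as the shift alone gives for a fall of that size, and C5ar1 was at 1.29 (limma adjusted p = 0.052). In labelled anti-CTLA4 against IgG, 0 members passed when scaled to that list (limma, with 0 at an unadjusted p under 0.05), where 8 of them had log2 changes of 0.29 to 0.42 and C5ar1 was at -0.20, while the median of all genes was -1.22. Quantile normalization, which gives equal ranks equal values, brought the C1q chains to between -0.18 and 0.01 in the first comparison and between 0.02 and 0.44 in labelled anti-CTLA4 against IgG. It left C3 at -2.47 and C4b at -2.01, both past the threshold, in CD4 depletion + anti-CTLA4 against labelled anti-CTLA4.

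**Figure D3:**
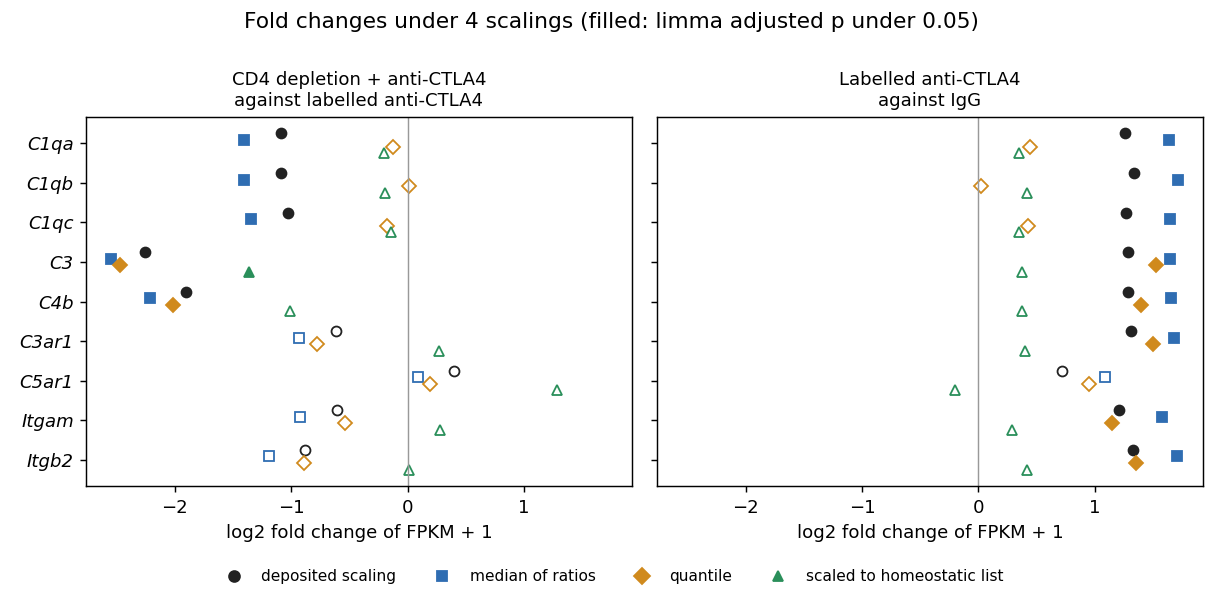
Log2 fold change of each complement gene (rows) under 4 scalings of the libraries (symbols), for CD4 depletion + anti-CTLA4 against labelled anti-CTLA4 and for labelled anti-CTLA4 against IgG; filled symbols passed at a limma adjusted p under 0.05. C3 is filled under all 4 scalings in the first panel, and the triangles, scaled to the homeostatic list, are all open in the second panel.

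Ratios within a library do not depend on the scale between libraries. C1qb over C1qa was 1.67 to 1.90 and C1qc over C1qa was 1.26 to 1.37 across all 7 libraries, so the 3 chains kept nearly fixed proportions while their level varied by up to 2.94-fold. Itgam over Itgb2 ranged more widely, with 1.50, 1.76 and 1.40 in CD4 depletion + anti-CTLA4, 1.14 and 1.44 in labelled anti-CTLA4, and 1.54 and 1.27 in IgG, and the groups overlapped. C3 over C1qa was 0.00904, 0.00410 and 0.00369 in CD4 depletion + anti-CTLA4, 0.0145 and 0.0122 in labelled anti-CTLA4, and 0.0110 and 0.0142 in IgG. The depletion libraries were below all 4 others, with a log2 difference of -1.37 from labelled anti-CTLA4 and -1.28 from IgG.

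Set against the gene for its own receptor, C3 was also lower in the depletion libraries. In all, 6 ratios were computed. C3 over C3ar1 was 0.172, 0.131 and 0.104 in CD4 depletion + anti-CTLA4, 0.470 and 0.473 in labelled anti-CTLA4, and 0.510 and 0.430 in IgG. Each depletion library was below every other library, replicate 1 included, while labelled anti-CTLA4 and IgG overlapped. The log2 difference was -1.83 from labelled anti-CTLA4 and -1.82 from IgG (exact two-sided permutation p = 0.2 for each, the smallest that 3 libraries against 2 allow), and 0.01 between labelled anti-CTLA4 and IgG. With each library left out in turn, it was -2.02 to -1.65 from labelled anti-CTLA4 and -2.01 to -1.64 from IgG. Both genes entered the difference from IgG, with C3 at -0.96 and C3ar1 at 0.70 on the log2(FPKM + 1) scale. In replicate 1, C3 at 10.6 FPKM lay between the IgG values of 9.85 and 14.9 FPKM. C3ar1 was at 61.4 FPKM there, against 19.3 and 34.7 FPKM in IgG. C4b over C3 was 3.03, 5.21 and 5.11 in CD4 depletion + anti-CTLA4, 3.25 and 2.82 in labelled anti-CTLA4, and 3.45 and 2.84 in IgG. Replicates 2 and 3 of the depletion group were above all other libraries for that ratio, and replicate 1 lay among them.

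**Figure D4:**
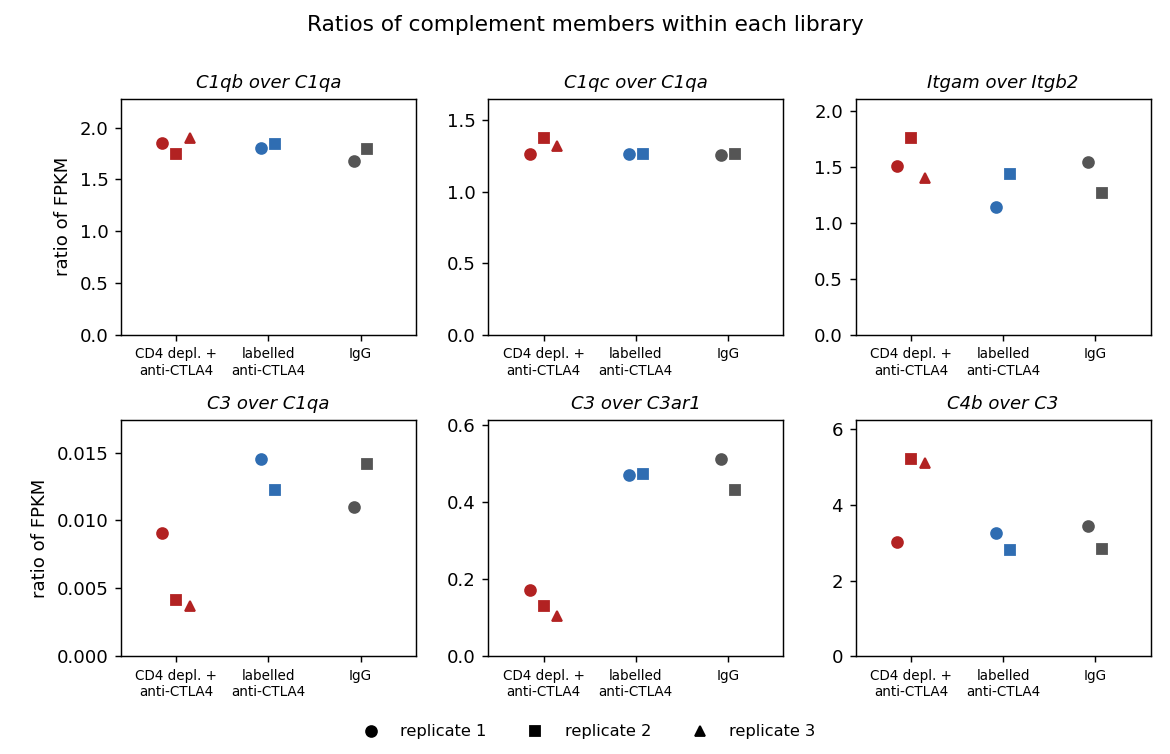
Ratios of FPKM between pairs of complement genes within each library (y axes, from 0, a separate scale per ratio) by group (x axis); each symbol is 1 library and its shape the replicate number. The ratio of C3 to C3ar1 is 0.104 to 0.172 in the depletion libraries and 0.430 to 0.510 in the other 4, while C1qb over C1qa stays between 1.67 and 1.90.

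The rest of the cascade was covered by 53 other complement genes, in lists of pathway starters, alternative and terminal pathways, regulators, receptors and beta 2 integrin partners. Of these, 25 reached the level needed for testing, as did 13028 of all 24537 genes. In CD4 depletion + anti-CTLA4 against labelled anti-CTLA4, 5 of the 25 fell and 1 rose, where 6.59% of all genes were lower, 22.8% higher and 29.4% either way. In labelled anti-CTLA4 against IgG, 8 rose and 2 fell, where 9.29% of all genes were higher, 28.8% lower and 38.0% either way. Taken in either direction, these counts were near the shares of all genes. In CD4 depletion + anti-CTLA4 against IgG, 0 of the 25 passed (limma, with 4 at an unadjusted p under 0.05). Their median log2 change was -0.52, 0.63 and 0.24 in these comparisons.

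The early classical genes were highest in the labelled anti-CTLA4 libraries. C1ra, encoding the protease C1r, stood at 3.32, 4.63 and 3.36 FPKM in CD4 depletion + anti-CTLA4, 7.76 and 8.14 FPKM in labelled anti-CTLA4, and 7.27 and 5.43 FPKM in IgG, and fell by 0.92 on the log2 scale with depletion against labelled anti-CTLA4 (SE 0.20, limma adjusted p = 0.019). C1s1, encoding C1s, averaged 2.71 ± 0.83 FPKM (SD, n = 3) in CD4 depletion + anti-CTLA4, 7.53 ± 0.31 (SD, n = 2) in labelled anti-CTLA4 and 3.02 ± 1.83 (SD, n = 2) in IgG. C1s1 fell by 1.22 with depletion against labelled anti-CTLA4 (limma adjusted p = 0.028) and rose by 1.17 in labelled anti-CTLA4 against IgG (limma adjusted p = 0.033). C2, which pairs with C4 in the enzyme that cuts C3, stood at 0.971, 2.64 and 2.23 FPKM in CD4 depletion + anti-CTLA4, 16 and 7.92 FPKM in labelled anti-CTLA4, and 5.45 and 2.53 FPKM in IgG. Both labelled anti-CTLA4 libraries were above the rest, and C2 fell by 2.11 with depletion against labelled anti-CTLA4 (limma adjusted p = 0.015) and rose by 1.37 in labelled anti-CTLA4 against IgG (limma adjusted p = 0.045). Scaled to the homeostatic list, C2 was at -1.23 with depletion against labelled anti-CTLA4 and still passed, whereas C1s1 was at -0.34 and C1ra at -0.03. In labelled anti-CTLA4 against IgG, C1ra was at 0.29 (limma adjusted p = 0.300). The median of the mural cell and fibroblast markers given above, and Dcn among them, moved in the same directions as C1s1 and C2 in both comparisons with labelled anti-CTLA4. In CD4 depletion + anti-CTLA4 against IgG, C1ra was at -0.62, C1s1 at -0.06 and C2 at -0.74, and the median of these markers was 0.87. The part of these markers was not tested.

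In the alternative pathway, Cfb, the factor B gene that lies beside C2, stood at 15.6, 5.10 and 10.5 FPKM in CD4 depletion + anti-CTLA4, 56.9 and 28.1 FPKM in labelled anti-CTLA4, and 2.61 and 16.3 FPKM in IgG. Cfb rose by 2.37 in labelled anti-CTLA4 against IgG (SE 0.76, limma adjusted p = 0.044), and its change with depletion against labelled anti-CTLA4 was -1.96 (limma adjusted p = 0.068). Cfp, encoding properdin, was at 50.6 FPKM in CD4 depletion + anti-CTLA4 replicate 1, the library with high monocyte markers, and at 0.451 to 4.19 FPKM in the other 6. Of the 7 terminal pathway genes, C8g alone was tested, at 1.12 to 2.93 FPKM over the libraries, and it passed in no comparison.

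Among regulators, Susd4, encoding a membrane complement inhibitor, fell by 2.72 in labelled anti-CTLA4 against IgG (SE 0.66, limma adjusted p = 0.020), with 2.21 and 0.383 FPKM in labelled anti-CTLA4 against 10.2 and 16.2 FPKM in IgG. The oligodendrocyte precursor and tumour-like markers were lower there too, for 15 of 16 genes, where 28.8% of all genes were lower. The part of these markers in the Susd4 value was not tested.

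Among receptors and adaptors, Cd93, a transmembrane protein first described as a C1q receptor, had the opposite pattern to C1q itself. It stood at 9.54, 10.5 and 9.91 FPKM in CD4 depletion + anti-CTLA4, 3.47 and 2.45 FPKM in labelled anti-CTLA4, and 7.98 and 5.56 FPKM in IgG. Cd93 rose by 1.48 with depletion against labelled anti-CTLA4 (SE 0.20, limma adjusted p = 0.012) and fell by 0.97 in labelled anti-CTLA4 against IgG (SE 0.22, limma adjusted p = 0.016). Of all genes, 22.8% were higher in the first comparison and 28.8% lower in the second. Of the 16 oligodendrocyte precursor and tumour-like markers, 13 were higher and 15 lower. The part of these markers in the Cd93 values was not tested. Itgax, the alpha chain of complement receptor 4, averaged 4.36 ± 2.18 FPKM (SD, n = 3) in CD4 depletion + anti-CTLA4, 11 ± 0.82 (SD, n = 2) in labelled anti-CTLA4 and 3.04 ± 2.23 (SD, n = 2) in IgG, and rose by 1.69 in labelled anti-CTLA4 against IgG (limma adjusted p = 0.036). Fermt3, encoding kindlin-3, which activates beta 2 integrins from inside the cell, fell by 0.74 with depletion against labelled anti-CTLA4 (limma adjusted p = 0.034) and rose by 1.25 in labelled anti-CTLA4 against IgG (limma adjusted p = 0.011). The signalling adaptors Tyrobp (DAP12) and Fcer1g (the Fc receptor gamma chain) rose by 1.43 (limma adjusted p = 0.016) and 1.33 (limma adjusted p = 0.035) in labelled anti-CTLA4 against IgG. With depletion against labelled anti-CTLA4 their changes were -0.87 (limma adjusted p = 0.059) and -0.93 (limma adjusted p = 0.087). With the shift of all genes by the homeostatic scaling, Fermt3 was at 0.15 and Tyrobp at 0.02 in that comparison.

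**Figure D5:**
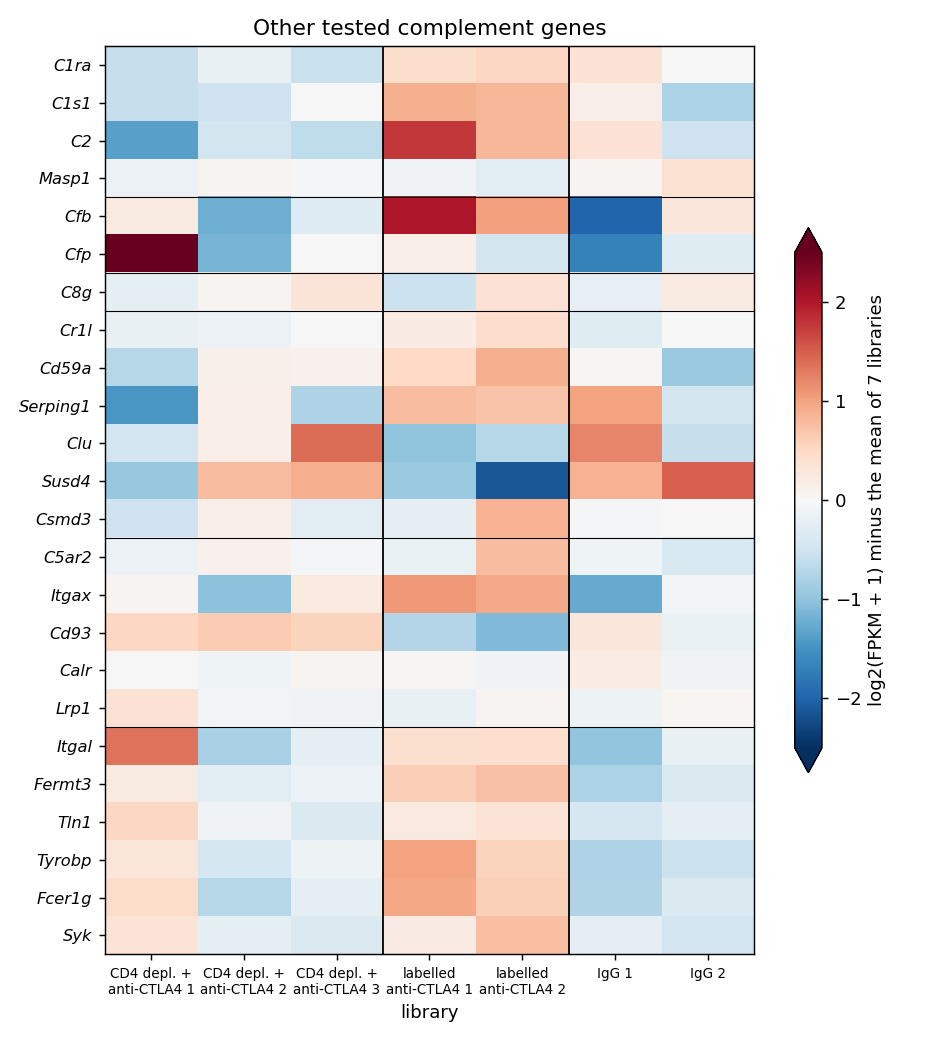
Log2(FPKM + 1) minus the mean of 7 libraries (colour, cut at the ends of the bar) of 24 other complement genes tested (rows, ruled off by list) in each library (columns, ruled off by group). C2 and Cfb are red in labelled anti-CTLA4, Cd93 is blue there, and Cfp stands out in CD4 depletion + anti-CTLA4 replicate 1.

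The members differed in how alike their patterns over the 7 libraries were when compared gene by gene. Likeness was the root mean square difference between log2(FPKM + 1) values, each centred on the gene's mean, so that 0 is an identical pattern and the libraries' shared scale counts towards it. C1qa was nearest to Psap (0.037), C1qc (0.044) and C1qb (0.056). C3 was nearest to Fgl2 (0.206), C4b (0.270) and Rtp4 (0.435), and C4b to Fgl2 (0.253), Ly6a (0.260) and C3 (0.270). These distances are several times those of the C1q chains. The measure also grows with a gene's own spread, which was 1.10 for C3, 0.90 for C4b and 0.57 to 0.61 for the C1q chains (SD on the log2 scale). Between members, Itgb2 was 0.183 from Itgam, 0.194 from C3ar1 and 0.275 from C1qb, so no sharp division was seen. Among receptors, C3ar1 was nearest to Jak3 (0.084), Arl11 (0.102) and Bcl2a1a (0.120), and C5ar1 to Gcnt2 (0.091), Pla2g7 (0.200) and Mmp14 (0.231). Itgam was nearest to Lcp1 (0.077), Arhgap30 (0.086) and Ptprc (0.104), and Itgb2 to Stxbp2 (0.083), Plek (0.086) and Arhgdib (0.095). C3 and C3ar1, a ligand precursor and its receptor, were 0.833 apart, and C3 and C5ar1 were 1.23 apart, the largest distance between any pair of members.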

How the data were processed

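The submitters' processing notes name build mm10 and the tools STAR, HOMER and DESeq2, and their versions are not given in the sources used here. The authors, per the file headers, counted reads over exons on both strands with HOMER, kept 1 entry per gene and deposited FPKM values, scaled by transcript length and by total reads, with the transcript length beside them. Antisense or overlapping genes therefore cannot be told apart. All columns of per-sample values were mapped to a sample. Low values gave the depth: over transcripts of 200 to 800 nucleotides, 100% of the 268 to 302 values of up to 20 reads per library lay within 0.1 of a whole read, for implied totals of 84200000 to 107600000 reads. No count test was run.

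Values were analysed as log2(FPKM + 1), which understates changes of low genes, with limma 3.58.1 in R 4.3.3: 13028 genes reaching 1 FPKM in 2 or more libraries, 1 estimate of the spread for the 3 groups with a mean-variance trend, two-sided tests and Benjamini-Hochberg adjustment over all genes, threshold 0.05. The code was tested on simulated data. Ratios were compared by exact permutation. The members and gene lists were chosen with earlier results of these data known. Named genes are the 9 members, every other complement gene past the threshold with a mean of at least 1 FPKM, and the 3 nearest genes of a member with a mean of at least 5 FPKM; Cfp, C8g, C4a, Dcn, Ccr2, Cxcr2 and Ly6g were added after their values were seen, and 1 gene that this rule takes is counted but not reported here. Alternatives were another pseudocount (0.1), no filter, a filter at 5 FPKM, other scalings, the 2 groups alone, a replicate block and leaving out each library.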

Additional observations from a re-analysis of the deposited data

How the results depend on the processing

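For CD4 depletion + anti-CTLA4 against labelled anti-CTLA4, 5 members passed, and 2 did without the filter on low values, with quantile normalization or when only the 2 groups entered the fit, and 1 when scaled to the homeostatic list. The all-gene count of 3827 became 2477 without the filter and 8982 when scaled to that list. Signs turned for C1qb with quantile normalization (0.0084), for C3ar1 (0.27), Itgam (0.28) and Itgb2 (0.0103) when scaled to the homeostatic list, and for C5ar1 without CD4 depletion + anti-CTLA4 replicate 1 (-0.18, in a range up to 0.92 over the libraries left out). For labelled anti-CTLA4 against IgG, 8 members passed, and 1 did without the filter, 5 with quantile normalization and 0 when scaled to the homeostatic list, where C5ar1 turned to -0.20. The other complement genes went down to 5, against 10, without the filter and with that scaling, and all genes to 8375, against 4957, with that scaling. C1qb ranked 5 to 7 in every library, so quantile normalization gave it nearly equal values by construction, and scaling to the homeostatic list shifts all genes alike; otherwise the cause was not tested.

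With each library left out in turn, the counts ranged over 0 to 6 members, 0 to 13 other complement genes and 0 to 5291 genes for CD4 depletion + anti-CTLA4 against labelled anti-CTLA4. They ranged over 0 to 8, 0 to 14 and 0 to 6069 for labelled anti-CTLA4 against IgG. For CD4 depletion + anti-CTLA4 against IgG, limma called 0 genes under each of these settings, with 418 to 1589 at an unadjusted p under 0.05. The differences of C3 over C1qa and of C3 over C3ar1 between CD4 depletion + anti-CTLA4 and each other group stayed negative with each library left out.

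Whether the replicate numbers pair the libraries cannot be decided here. Deviations of same-numbered libraries from their group means correlated at -0.20 to 0.12. In a group of 2 libraries such deviations mirror each other, which fixes the values of same-numbered and other pairs as opposites. With the replicate number as a block, 0 members, 0 other complement genes and 0 genes passed for CD4 depletion + anti-CTLA4 against labelled anti-CTLA4 (limma, with 4, 8 and 4304 at an unadjusted p under 0.05). For labelled anti-CTLA4 against IgG the block left 1 member, 5 other complement genes and 2665 genes, and for CD4 depletion + anti-CTLA4 against IgG 0.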
